A study of Mus musculus with 2 samples.

Results

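Igfbp2 and Igfbp4 are 2 of the 500 genes imaged in this series, and they are described here by cell group, by place in the tissue and by whether they occur in the same cells. Both encode secreted proteins that bind insulin-like growth factors and control how much of these hormones reaches the receptor on the cell surface. Igfbp2 also carries an RGD sequence, by which it can bind integrins on cells, and its mRNA is known to be abundant in fetal liver. Igfbp4 is known mainly as an inhibitor of insulin-like growth factors, which it releases when the protease PAPP-A cuts it. The genes were chosen because earlier results of these data showed high counts and patterns by cell group, lobule position and place. Those values are therefore given as descriptions without a test. Tests are given only for measures that did not enter the choice, namely distance to erythroid or mesenchymal cells, place within the hepatocyte and transcripts outside cells.

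Transcripts were read by MERFISH, an imaging method that identifies single RNA molecules in tissue by barcodes of fluorescent spots, in 2 sections of mouse liver. The labels place both sections in 1 group, as replicates 1 and 2 under the tag 2d, which was not interpreted. They were cut 10 µm thick from snap-frozen liver. The labels give no strain, genotype, age or treatment for either section and do not say whether they came from separate animals. The series' design text is about metastasis-bearing mice under treatment, but neither label names a treatment, and none was assigned. Differences between the sections may thus be technical or biological, and p-values over them do not measure spread between animals.

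The mature liver is arranged in lobules in which blood flows from the portal tract to the central vein, and hepatocytes along this path express different enzymes. Hepatocytes release most plasma proteins, while sinusoidal endothelium, stellate cells and macrophages lie between the hepatocyte plates. In fetal and newborn liver, blood-forming cells are found among them.

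Probe sequences were not used here. Since the 2 genes are members of 1 family with unlike patterns below, the stretch of 250 bases before the start of each is shown for orientation, from RefSeq on mouse build GRCm38.p6. RefSeq's table gives 2 starts for Igfbp2, of which the first is shown (chr1:72824230-72824479, plus strand), and 1 for Igfbp4 (chr11:99040994-99041243, plus strand). Capitals mark the GC box GGGCGG and the TATA box TATAAA, searched on both strands.
Igfbp2: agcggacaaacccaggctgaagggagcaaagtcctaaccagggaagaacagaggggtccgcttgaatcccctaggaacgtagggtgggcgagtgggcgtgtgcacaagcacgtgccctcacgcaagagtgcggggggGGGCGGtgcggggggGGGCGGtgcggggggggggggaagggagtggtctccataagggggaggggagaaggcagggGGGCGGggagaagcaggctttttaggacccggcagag
Igfbp4: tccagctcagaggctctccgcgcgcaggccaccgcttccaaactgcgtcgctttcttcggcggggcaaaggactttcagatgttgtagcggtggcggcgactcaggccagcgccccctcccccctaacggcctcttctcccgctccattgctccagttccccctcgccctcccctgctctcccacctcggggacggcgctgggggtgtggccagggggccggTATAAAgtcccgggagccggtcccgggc
The first start of Igfbp2 had 3 GC boxes and no TATA box, whereas Igfbp4 had 1 TATA box, at position -28 from the start, and no GC box. The second start of Igfbp2 had neither box and a GC content of 56.4%, so the contrast in GC boxes rests on the start shown. Of 32851 mouse promoter windows of the same length, 32.7% held a GC box and 12.4% a TATA box. GC content was 67.2% for the first start of Igfbp2 and 69.2% for Igfbp4, against a median of 52.4%. Neither window held the letters CTTTGA or CTTTGT (found in 13.8% and 16.5% of windows) or GTTAAT (6.4%). Such matches describe the letters only, and no binding was measured in these sections.

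Section 1 held 26037 segmented cells and section 2 held 85929, of which 9209 and 16290 had at least 10 counts and were kept. Kept cells had a median of 27 counts in section 1 and 15 in section 2, so single cells are shallow and values were summed over cells. No cell identifier occurred in both sections. Igfbp2 had 15173 counts in the kept cells of section 1 and 41349 in those of section 2, and Igfbp4 had 14695 and 16578. Igfbp2 thus took 3.89% and 13.8% of all gene counts, ranking 6 and 2 of 500 genes, and Igfbp4 took 3.77% and 5.53%, ranking 7 and 3. The brightest of 50 blank barcodes, which match no gene, had 268 and 410 counts. The share of Igfbp2 stood far apart between the sections and that of Igfbp4 less so, and with 1 section on each side this gap has no test. Because Igfbp2 is such a large part of section 2, levels of other genes there are lowered by it, and each result is given per section. Levels of the 2 genes are not set against each other, since detection differs between probes, but the ratio of their counts can be compared between places.

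Kept cells were grouped by summed counts of marker genes, where a non-hepatocyte list with enough counts came before the hepatocyte list. The hepatocyte group held 5390 cells in section 1 and 11233 in section 2, or 58.5% and 69.0% of kept cells. The endothelial group held 270 and 32 cells, the mesenchymal group 186 and 174, the macrophage group 108 and 36, the erythroid group 530 and 115 and the monocyte and neutrophil group 285 and 66. Groups of under 30 cells in either section are not described, and 2346 and 4613 cells had too few marker counts for any group. Cells of the other groups also carried hepatocyte transcripts. The median count of 9 hepatocyte markers was 8 in the hepatocyte group of section 1, and it was 9 in the endothelial, 4 in the erythroid and 5 in the mesenchymal group. In section 2 these medians were 6, 3, 3 and 1. The endothelial, erythroid and mesenchymal groups held medians of 5, 4 and 8 own marker counts in section 1. In section 2 they held 3, 3 and 7. In turn, 973 and 543 hepatocyte-group cells held at least 2 counts of another list. The groups are therefore enriched and not pure, and 1 segmented cell can hold RNA of its neighbours.

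As a share of gene counts, Igfbp2 was highest in the hepatocyte group and lowest of the named groups in mesenchymal cells, in both sections. Its level in the hepatocyte group was 484 counts per 10000 gene counts in section 1 (95% counting interval 475 to 493) and 1466 in section 2 (1451 to 1482). In the endothelial group it was 369 (344 to 395) and 864 (680 to 1081). In the monocyte and neutrophil group it was 288 and 740, in the macrophage group 272 and 829, and in the erythroid group 246 and 524. These blood-cell groups lay between the other groups, and in section 2 the intervals of the endothelial, macrophage and monocyte groups overlapped. In the mesenchymal group Igfbp2 stood at 219 (194 to 245) and 294 (243 to 352). In section 1 this interval overlapped those of the erythroid (230.5 to 262) and macrophage (242 to 305) groups. Over all marker-defined groups other than hepatocytes, the hepatocyte group was 1.74-fold higher in section 1 and 2.81-fold higher in section 2. As counts per cell this ratio was 0.905 and 2.14, so its direction in section 1 rests on the scaling. There the endothelial group held 3.08 Igfbp2 counts per cell, the macrophage group 2.76 and the monocyte and neutrophil group 2.74, against 2.05 in the hepatocyte group. Cells without a group, with medians of 1 and 2 hepatocyte marker counts, held 188 in section 1 but 1228 in section 2. With cells thinned to 10 counts each, the share of cells with a count ranked the hepatocyte, erythroid and mesenchymal groups alike. Of hepatocyte-group cells, 35.1% and 75.3% then held Igfbp2, against 18.1% and 34.8% in the erythroid group and 14.5% and 17.2% in the mesenchymal group. Without thinning the shares were 67.5% and 88.1%, 52.8% and 64.4%, and 57.5% and 30.5%. Median depths were 31 and 17 counts in the hepatocyte, 56 and 25 in the erythroid and 53 and 19 in the mesenchymal group.

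Igfbp4 had another order, with the endothelial group at the top as a share of gene counts in both sections. It stood at 545 counts per 10000 in the endothelial group of section 1 (515 to 576), above 434 in the hepatocyte group (425 to 442). In section 2 the values were 636 (481 to 826), from 56 counts in 32 cells, and 566 (557 to 576), so the intervals overlapped there. With cells thinned to 10 counts, Igfbp4 was found in 47.0% and 40.6% of endothelial-group cells and in 36.1% and 43.6% of hepatocyte-group cells, so the hepatocyte group was above in section 2. Without thinning the shares were 91.1% and 71.9%, and 71.0% and 63.7%, at median depths of 65 and 20 counts in the endothelial group. The mesenchymal group had 301 and 299, the monocyte and neutrophil group 290 and 432, the macrophage group 230 and 292, and the erythroid group 213 and 343. The lowest group thus was the erythroid one in section 1 and the macrophage one in section 2. The hepatocyte group was 1.42-fold and 1.56-fold higher than all other marker-defined groups. As counts per cell, which keep the greater depth of the other groups in section 1, this ratio was 0.739 and 1.19, so its direction rests on the scaling.

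**Figure D1:**
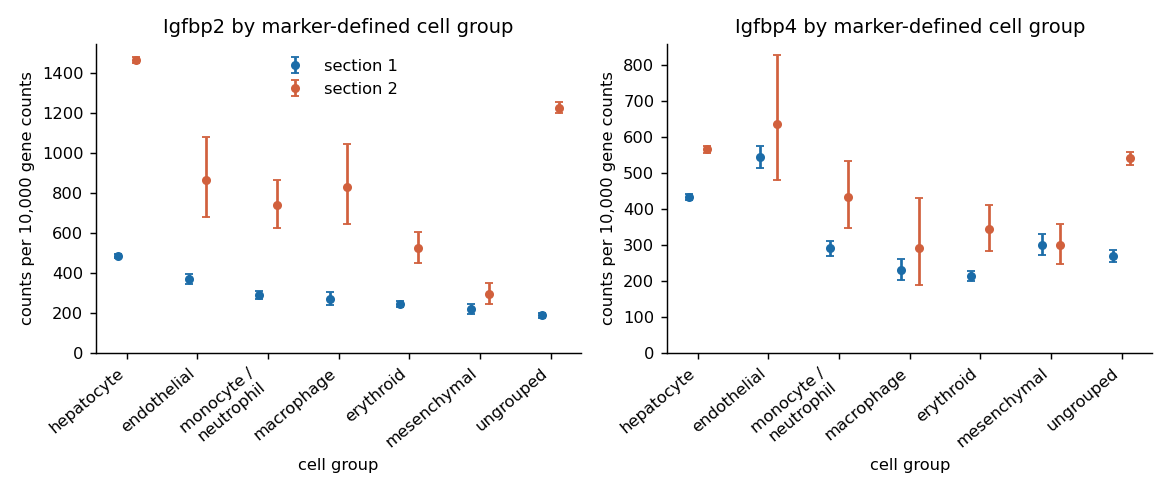
Levels of Igfbp2 (left) and Igfbp4 (right) as counts per 10,000 gene counts in 7 cell groups, one point per section with its 95% counting interval. Igfbp2 was highest in the hepatocyte group in both sections, at 484 and 1466, and Igfbp4 in the endothelial group, at 545 and 636.

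Set against the hepatocyte transcripts of the same cells, Igfbp2 differed less over the groups of section 1 than as a share of gene counts. Per 100 hepatocyte marker counts it had 17.0 counts in the hepatocyte group, 20.1 in the endothelial, 17.9 in the macrophage, 17.0 in the erythroid, 15.4 in the monocyte and neutrophil and 14.9 in the mesenchymal group. In section 2 the values were 43.6 in the hepatocyte group, 48.1, 58.2, 33.0 and 36.5 in the next ones in that order, and 28.1 in the mesenchymal group. Igfbp4 differed more between the described groups of section 1 on this scale. In section 1 it had 15.2 counts per 100 marker counts in the hepatocyte group, 15.1 in the macrophage, 14.7 in the erythroid and 15.5 in the monocyte and neutrophil group, but 20.5 in the mesenchymal and 29.7 in the endothelial group. In section 2 the same groups had 16.8, 20.5, 21.6, 21.3, 28.6 and 35.4. The hepatocyte group was chosen for its marker counts, which lowers its own ratio. The endothelial and mesenchymal groups thus held more Igfbp4 for their hepatocyte transcripts than any other marker-defined group described, in both sections. Cells without a group, which have few marker counts by the rule, held 42.5 and 41.5 for Igfbp4 and 29.7 and 94.35 for Igfbp2. In section 2, 23 of the 32 endothelial-group cells held only the minimum of 3 own marker counts.

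By the ratio of the 2 genes, which needs no scaling by totals, the endothelial and mesenchymal groups also stood above the hepatocyte group. For each 100 Igfbp2 counts the hepatocyte group held 89.6 Igfbp4 counts in section 1 (95% interval 87.2 to 92.1) and 38.6 in section 2 (37.8 to 39.4). The endothelial group held 148 (135 to 161) and 73.7 (51.2 to 105). The mesenchymal group held 138 (118 to 160) and 102 (78.1 to 132). In both sections these intervals lay above those of the hepatocyte group. The macrophage group, with 84.6 (71.2 to 100.3) and 35.2 (21.4 to 56.3), overlapped the hepatocyte group in both sections. The erythroid group, with 86.6 and 65.5, and the monocyte and neutrophil group, with 101 and 58.4, did so in section 1 only. In section 2 the intervals of these 2 groups overlapped the endothelial one. A higher ratio was not particular to the endothelial and mesenchymal groups. Cells without a group held 143 (130.5 to 157) and 44.0 (42.3 to 45.8), and cells not kept held 131 and 45.1, with intervals above the hepatocyte group in both sections.

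**Figure D2:**
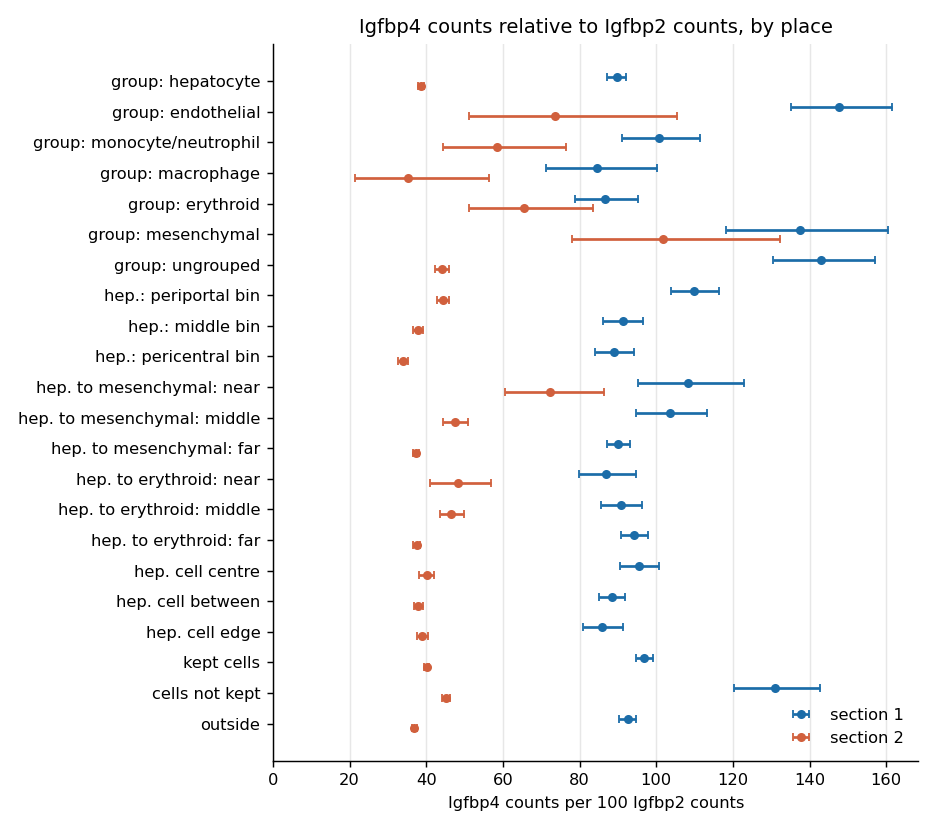
Igfbp4 counts per 100 Igfbp2 counts, with 95% counting intervals, in cell groups, in places of hepatocyte-group cells (marked hep., by position bin, distance to another group or place in the cell), and in kept cells, cells not kept and outside cells. Section 1 lies right of section 2 throughout. In both, the endothelial, mesenchymal, and monocyte and neutrophil groups and the cells without a group lie right of the hepatocyte group.

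Position in the lobule was scored for each hepatocyte-group cell from landmark genes in its neighbours within 50 µm, pericentral (Glul, Cyp2e1, Gulo) against periportal (Pck1, Ass1, Hsd17b13). Cells were then split into 3 equal bins in each section, of 1224 or 1225 cells in section 1 and 3262 in section 2. Igfbp2 was lower in the periportal bin, at 431 counts per 10000 in section 1, than in the middle and pericentral bins, at 492 and 499. In section 2 it went from 1316 through 1499 to 1636. Among cells more than 50 µm from erythroid and mesenchymal cells this rise was smaller. In section 1 Igfbp2 then stood at 474 (448 to 501.5), 505 and 514 (485 to 544.5), with overlapping intervals of the end bins. In section 2 it then stood at 1432, 1587 and 1700. As a share of all counts Igfbp4 ran the other way. It held 473, 448 and 444 in section 1 and 583, 567 and 555 in section 2, with overlapping intervals between neighbouring bins. The rise of Igfbp2 lowers this share, so the share alone does not show that Igfbp4 itself fell. Levels by position were not taken on totals without both genes, and the part of Igfbp2 in the fall was not tested. With neighbours within 100 µm Igfbp4 stood at 427, 438 and 435 in section 1, where the periportal bin was then the lowest. In section 2 it stood at 582, 562 and 558. Counts of Igfbp4 per 100 of Igfbp2 therefore went from 110 in the periportal bin to 88.9 in the pericentral bin of section 1, and from 44.3 to 33.9 in section 2. Fitted over both sections with edgeR, the pericentral minus periportal difference was 0.20 on the log2 scale for Igfbp2 (SE 0.10, sections 0.12 and 0.28). It was -0.15 for Igfbp4 (SE 0.10, sections -0.18 and -0.10), where the median of all genes lay at -0.09. With Igfbp2 and Hp left out of the library sizes Igfbp4 stood at -0.11 (SE 0.08), with that median at -0.04. The main fit called 22 of 326 genes, or 6.75%, at an adjusted p of 0.05. Cyp2f2 stood at -2.48 and Axin2, a target of Wnt signalling around the central vein, at 1.48 (edgeR adjusted p = 9.4e-34 and 1.2e-06). These genes are named after their values were seen, to give the scale. Between the ends of the lobule axis, both growth factor binding proteins differed by far less than such zoned genes.

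**Figure D3:**
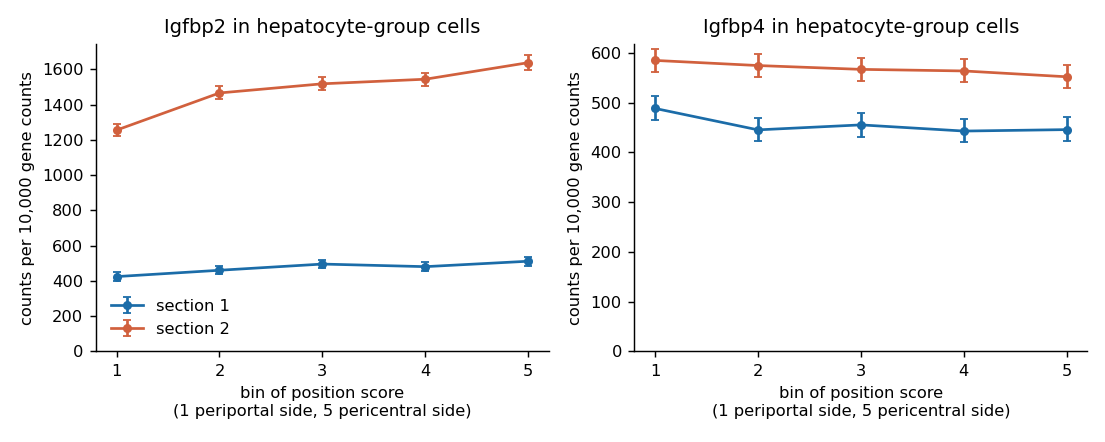
Levels of Igfbp2 (left) and Igfbp4 (right) as counts per 10,000 gene counts in hepatocyte-group cells, split into 5 equal bins of the position score, one line per section with 95% counting intervals. Igfbp2 went from 424 in the most periportal to 511 in the most pericentral bin of section 1 and from 1255 to 1638 in section 2, while Igfbp4 went from 488 to 446 and from 585 to 552.

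Along the y axis of the slide Igfbp2 also differed, and Igfbp4 far less. The maps of Igfbp2 were brighter at the low than at the high end of the slide's y axis in both sections, and 4 bands of equal cell number along it were chosen after these maps were seen. In section 1 the bands held 561, 509, 454 and 410 Igfbp2 counts per 10000, and in section 2 they held 1806, 1699, 1344 and 1083. Each band was lower than the one before it in both sections. Igfbp4 held 431, 434, 431 and 440 in section 1 and 544, 552, 579 and 587 in section 2. On totals that leave out both genes, the first band was 1.39-fold and 1.82-fold above the last for Igfbp2, but 0.994-fold and 1.01-fold for Igfbp4. Of 41 other genes with at least 500 counts, 2 in each section differed more in size between the end bands than Igfbp2 did. Along the x axis Igfbp4 differed more than Igfbp2. The first band over the last was 1.17-fold and 0.873-fold for Igfbp4, in opposite directions in the sections, and 1.06-fold and 1.07-fold for Igfbp2. The x bands held 441, 492, 448 and 380 Igfbp4 counts per 10000 in section 1 and 509, 567, 620 and 585 in section 2. The ratio of Igfbp4 to 100 Igfbp2 counts went from 76.7 to 107 along the y axis in section 1 and from 30.1 to 54.1 in section 2.

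Other measures also moved along that axis. Hepatocyte markers, as a share of all counts, were at 29.4%, 29.0%, 28.2% and 27.3% in the bands of section 1 and 35.5%, 34.6%, 33.3% and 31.4% in section 2. The median position score of the last band of section 2 was -0.585, against 0, 0 and -0.15 in the others, and in section 1 the medians were 0, 0.47, 0.26 and 0. Median counts per cell ran 32, 28, 35 and 29 in section 1 and 17, 16, 16 and 19 in section 2, with no common order. Their part in the gradient was not tested, and the orientation of the sections relative to the liver is not given in the labels. Within bands, Igfbp2 was higher in the pericentral than the periportal bin in 8 of 8, by 1.11-fold to 1.24-fold. Igfbp4, as a share of counts that include Igfbp2, was lower there in 7 of 8, at ratios of 0.904 to 1.002 over all 8.

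**Figure D4:**
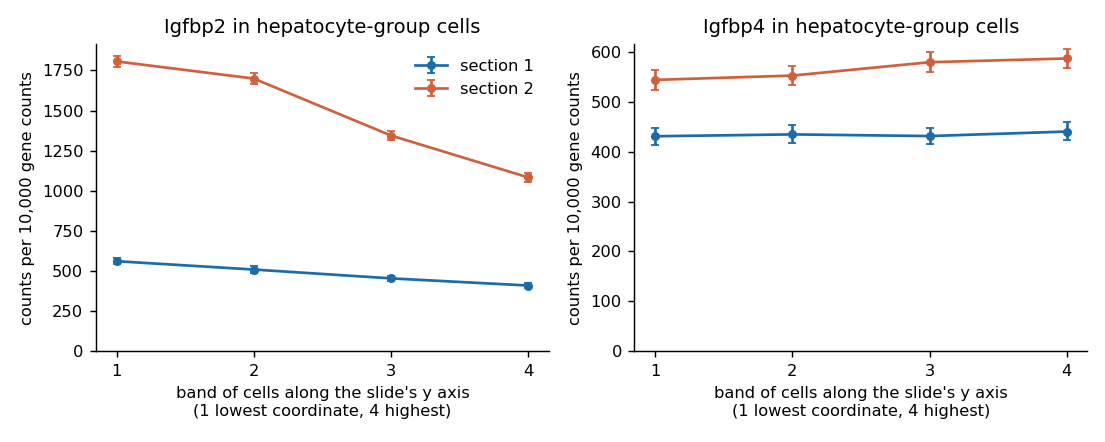
Levels of Igfbp2 (left) and Igfbp4 (right) as counts per 10,000 gene counts in hepatocyte-group cells, in 4 bands of equal cell number along the slide's y axis, one line per section with 95% counting intervals. Igfbp2 went from 561 to 410 in section 1 and from 1806 to 1083 in section 2, while Igfbp4 stayed between 431 and 440 and between 544 and 587.

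**Figure D5:**
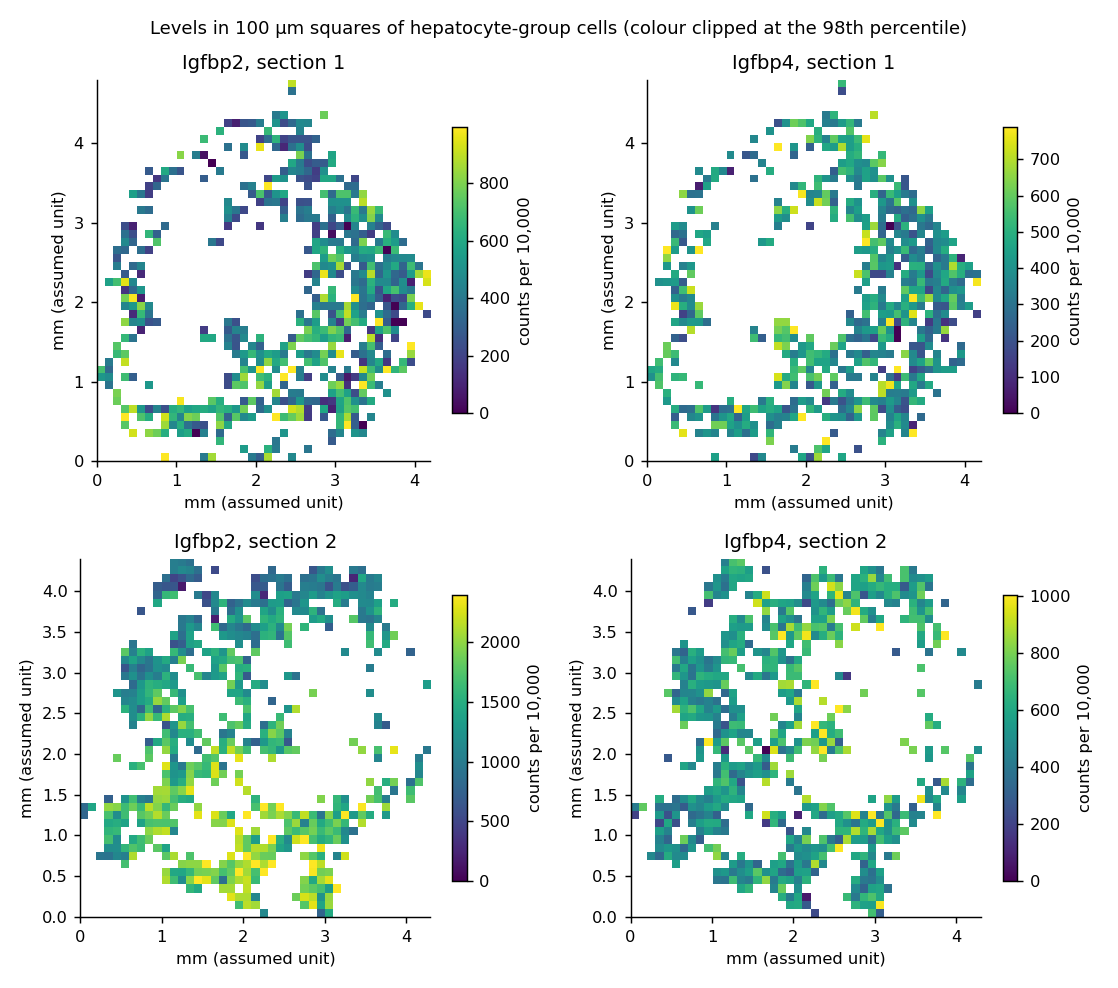
Maps of Igfbp2 (left) and Igfbp4 (right) in sections 1 (top) and 2 (bottom), where each coloured square of 100 µm is the level in its hepatocyte-group cells as counts per 10,000 gene counts, clipped at the 98th percentile, and axes are in mm. In section 2 the high squares of Igfbp2 lie in the lower part of the map and those of Igfbp4 do not.

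Hepatocyte-group cells next to mesenchymal cells held less Igfbp2 in both sections, without a call in the fit over all genes. Mesenchymal-group cells were recognised by collagen genes, the receptor gene Pdgfra and smooth muscle actin. Within 20 µm of such a cell the level of Igfbp2 was 429 counts per 10000 in section 1 (241 cells), against 488 in cells more than 50 µm away (3805 cells). In section 2 it was 806 (173 cells) against 1522 (9381 cells), with 1186 between. The cells between in section 1 held 422, no higher than the near ones. As a share of counts that include Igfbp2, Igfbp4 had 465 against 440 in section 1 and 582 against 568 in section 2. The lower Igfbp2 near these cells raises that share. After TMM scaling the Igfbp4 differences were 0.0083 in section 1 and -0.86 in section 2, so the direction in section 2 rests on the scaling. The counting intervals of near and far cells did not overlap for Igfbp2 and did for Igfbp4. The edgeR difference, near minus far, was -0.76 for Igfbp2 (SE 0.26, adjusted p = 0.27, sections -0.26 and -1.81) and -0.16 for Igfbp4 (SE 0.21, adjusted p = 0.81). The fit called 2 of 347 genes (0.576%), and the median of all genes lay at -0.10. With library sizes in place of TMM scaling that median was 0.04, Igfbp2 stood at -0.54 (edgeR adjusted p = 0.014) and Igfbp4 at 0.06. With position in the model, the same 2 sections were cut into more sums, which gives more residual degrees of freedom without more sections. Igfbp2 then stood at -1.16 (edgeR adjusted p = 4.9e-09) and Igfbp4 at -0.59 (edgeR adjusted p = 0.018), where the median of all genes lay at -0.44. The call of Igfbp2 thus rests on these settings, and the section value of -1.81, taken after TMM scaling, is larger than the gap between the levels above. In each of 6 bands along the y axis with at least 30 cells of both kinds that had a position score, Igfbp2 was lower near mesenchymal cells, at ratios of 0.849 to 0.996 in section 1 and 0.514 to 0.687 in section 2. Igfbp4 was lower in 3 of the 6. The near cells of section 2 held 72.3 Igfbp4 counts per 100 Igfbp2 counts (60.5 to 86.3), against 37.3 (36.5 to 38.1) far away, and those of section 1 held 108 (95.3 to 123) against 90.1 (87.3 to 93.1). Mesenchymal cells themselves had a low Igfbp2 level, and the part of their RNA in these cells was not tested.

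Near erythroid cells the levels of both genes were lower in both sections, also without a call in the fit over all genes. Markers of the erythroid group included the erythropoietin receptor gene Epor and the carbonic anhydrase gene Car2. Igfbp2 stood at 452 within 20 µm (530 cells) and 482 beyond 50 µm (2998 cells) in section 1, and at 1007 (194 cells) and 1523 (9285 cells) in section 2. Igfbp4 stood at 393 and 454 in section 1 and at 486 and 571 in section 2. The counting intervals of near and far cells overlapped for Igfbp2 in section 1 and were apart otherwise. The edgeR difference was -0.60 for Igfbp2 (SE 0.29, adjusted p = 0.33, sections -0.21 and -1.03) and -0.46 for Igfbp4 (SE 0.27, adjusted p = 0.53, sections -0.33 and -0.66). The fit called 17 of 347 genes (4.9%), among which Epor, Car2 and the proliferation gene Mki67 were higher in the near hepatocyte-group cells. Epor stood at 1.25 and Car2 at 1.44, and both are among the markers that define the erythroid group. The source of these counts, and any part of erythroid RNA in the lower Igfbp levels, were not tested. The median of all genes was -0.16, and without TMM scaling it was -0.04 and Igfbp2 stood at -0.34 (edgeR adjusted p = 0.0015). With position in the model, again from more sums of the same 2 sections, Igfbp2 stood at -0.83 and Igfbp4 at -0.64 (edgeR adjusted p = 2.3e-06 and 0.00059). The median of all genes lay at -0.31 there. Within bands along the y axis Igfbp4 was lower near erythroid cells in 6 of 6 and Igfbp2 in 4 of 6, the exceptions being in section 1. The Igfbp4 to Igfbp2 ratio near erythroid cells was 86.9 counts per 100 in section 1 against 94.2 far away, but 48.3 against 37.5 in section 2.

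Over the pooled transcripts of hepatocyte-group cells both genes were called lower at the cell centre, where the nucleus usually lies, but this call depended on the scaling. Transcripts were pooled by fixed distances, so the classes can draw on different cells and the contrast is not one within cells. In section 2 the centre class held 42211 transcripts and the edge class 65751. From cells of at least 20 counts they held 20099 and 44362. The part of this mix in the differences was not tested. Transcripts less than 3 µm from the centre held 447 Igfbp2 counts per 10000 in section 1, against 495 at intermediate distance and 505 at 6 µm or more. In section 2 the values were 1383, 1470 and 1513, so the centre was lowest and the edge highest in both. Igfbp4 had 427, 437 and 435 in section 1 and 555, 558 and 589 in section 2, with overlapping intervals of centre and edge in both. The edgeR difference, centre minus edge, was -0.34 for Igfbp2 (SE 0.02, adjusted p = 0.0012, sections -0.38 and -0.31) and -0.25 for Igfbp4 (SE 0.03, adjusted p = 0.015, sections -0.23 and -0.27). The fit called 15 of 359 genes (4.18%), 13 of them (3.62% of those tested) lower at the centre. Named after their values were seen, the other lower ones were Apoh, Ambp, F2, Fga, Fgb, Hp and Fn1, which encode plasma proteins, and Ctsb, Lrp1, Col1a1 and Itga2. TMM scaling moved the median of all genes to -0.04, from 0.14 without it, and without it 11 genes were called, 9 higher and 2 lower at the centre. Without it Igfbp2 stood at -0.15 (edgeR adjusted p = 0.054) and Igfbp4 at -0.06 (edgeR adjusted p = 0.40). Relative to the median gene both genes were thus lower at the centre on either scale.

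Many transcripts of both genes lay outside segmented cells. Of all Igfbp2 transcripts 45.0% lay outside in section 1 and 36.4% in section 2, and of Igfbp4 43.4% and 33.6%. All genes together had 40.1% and 34.4% outside, the median gene with at least 500 transcripts 37.1% and 32.4%, and blank barcodes 57.5% and 48.5%. Among genes with at least 500 transcripts, Igfbp2 was above 152 of 194 in section 1 and 143 of 165 in section 2, and Igfbp4 above 141 and 101. Outside cells Igfbp2 made up 460 of 10000 counts in section 1 and 1448 in section 2, against 389 and 1379 in kept cells. Igfbp4 made up 426 and 535 outside, against 377 and 553. The edgeR difference was 0.18 for Igfbp2 (SE 0.15, adjusted p = 0.66) and 0.09 for Igfbp4 (SE 0.15, adjusted p = 0.83). This fit called 0 of 484 genes (0%), while 40 had an unadjusted p below 0.05, and DESeq2 also called 0 (34 unadjusted). Cells that were not kept had 248 and 1236 for Igfbp2 and 325 and 557 for Igfbp4.

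Within hepatocyte-group cells Igfbp4 was found in similar shares of cells with and without Igfbp2, with opposite directions in the sections. Cells were thinned to 10 counts each to remove differences in depth. In section 1 Igfbp4 was found in 36.6% of cells with Igfbp2 and in 35.8% of cells without it, an odds ratio of 1.04. In section 2 it was found in 42.4% and 47.3%, an odds ratio of 0.818. Counts drawn from a fixed number compete, so odds ratios below 1 arise for abundant genes. For 41 other genes the median log2 odds ratio with Igfbp2 was -0.13 in section 1 and -0.28 in section 2, beside 0.05 and -0.29 for Igfbp4. Among the partners of Igfbp2 the pair was above 31 of 41 in section 1 and 20 of 41 in section 2, and among those of Igfbp4 above 37 and 9 of 41. At 20 counts per cell the odds ratios were 0.880 and 0.798. The pair was then above 9 and 13 of 41 partners of Igfbp2 and above 12 and 4 of 41 partners of Igfbp4, so its place among other genes rests on the depth chosen.

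Over 100 µm squares of hepatocyte-group cells the levels of the 2 genes were weakly correlated, with Pearson r of 0.25 over 574 squares of section 1 and 0.14 over 612 of section 2. The squares share sections, depth and cell makeup, and the totals left out both genes. The median r of 41 other genes was 0.09 and 0.05 with Igfbp2 and 0.03 in both sections with Igfbp4. Taking all kept cells in place of the hepatocyte group, r was 0.39 and 0.68, where the share of hepatocytes in a square enters both levels. The 5 genes most like Igfbp2 over squares, by the mean r of the sections among 42 genes, were Hp (0.30), Fgb (0.29), F2 (0.27), Cyp2e1 (0.25) and Igfbp4 (0.20). Hp encodes haptoglobin, Fgb and F2 encode clotting proteins and Cyp2e1 a pericentral enzyme. The 5 most like Igfbp4 were Igfbp2 (0.20), F2 (0.18), Fgb (0.14), Hp (0.09) and Sord (0.09), the last encoding sorbitol dehydrogenase. Igfbp2 was thus first in the list of Igfbp4, but Igfbp4 had rank 5 in that of Igfbp2, and all values were low.

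Of 27 other genes of the growth factor axis, receptors and proteases included, the panel held only Igf1, a hormone that both proteins bind. It had 45 counts in kept cells of section 1 and 16 in those of section 2, below the mean blank barcode at 51.3 and 19.2, so no pattern of it was detectable. Of 6 integrin genes whose products form RGD receptors, the panel held Itgb1 and Itgb5. Itgb5 had 1320 and 789 counts and was highest in the macrophage group, at 135 counts per 10000 in section 1 (114 to 159) and 81.8 (32.9 to 169) in section 2, against 32.9 and 24.7 in the hepatocyte group. Itgb1 had 263 and 161 counts, under the brightest blank, and stood at 4.51 and 4.50 in the hepatocyte group and at 11.4 and 10.3 over the other groups. Neither integrin gene was called by position, with edgeR differences of -0.32 for Itgb1 (adjusted p = 0.64) and 0.04 for Itgb5 (adjusted p = 0.94). By the same test neither was called by distance to erythroid or mesenchymal cells, at the cell centre or outside cells, where adjusted p ranged from 0.35 to 0.999. With position in the model Itgb5 was called lower near erythroid cells, at -0.69 (edgeR adjusted p = 0.042).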

How the data were processed

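Single RNA molecules of 500 genes and 50 blank barcodes were imaged in 2 sections. The authors deposited raw counts per segmented cell, cell positions and volumes, and a list of transcripts with positions, per the file headers; the software for decoding and segmentation is not given in the sources used here. No length unit is given, and µm was assumed. Recounting the transcripts gave the same counts of both genes in every cell.

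A cell was kept if its volume was 50 or more and its gene counts 10 or more, and no doublet caller was run. A cell joined the non-hepatocyte group with the most marker counts (at least 3, over at least 2 genes, untied). This held however many hepatocyte marker counts it had. Other cells joined the hepatocyte group by the same minimum. Levels are counts per 10000 gene counts, with exact 95% intervals that cover counting error only. Ratios of the 2 genes have exact binomial intervals.

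Raw counts were summed per section and place, giving 6 sums and 2 residual degrees of freedom in each main fit. With 5 position bins, or with position in the model, the same 2 sections were cut into more sums, with more residual degrees of freedom. With position in the model, the block was section and position bin together. Smaller p-values there do not reflect more sections. Sums were tested with edgeR 4.0.16 (R 4.3.3), by a quasi-likelihood test with TMM scaling and a block for section, after a test on simulated data. Genes of 50 counts or more were tested, with Benjamini-Hochberg adjustment over all of them and a threshold of 0.05. TMM rescales each sum so that the middle of its genes does not differ. DESeq2 1.42.0 was an alternative. The section numbers are a block because both places of a comparison come from the same section. Distances to other groups were compared over hepatocyte-group cells with at least 5 kept cells within 50 µm. Squares needed 100 counts, and 0.5 was added before logs. Descriptions used Python 3.11.15.

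Genes named were the 2 members, a list of growth factor axis genes, a list of RGD integrins, the landmarks, and the 5 genes most like each member over squares; others are marked where named. The members and lists were chosen with earlier results of these data known. The 4 bands along the slide were chosen after seeing the maps. The alternatives tried are in the closing section.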

Additional observations from a re-analysis of the deposited data

How the results depend on the processing

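Numbers of genes called with other settings were as follows. By position, against 22, DESeq2 called 11, a radius of 30 µm 12, a radius of 100 µm 42, and leaving out hepatocyte-group cells near erythroid or mesenchymal cells (an alternative added after seeing the data, as were those with position in the model) 5. By distance to erythroid cells, against 17, DESeq2 called 9 and position in the model 38. By distance to mesenchymal cells, against 2, library sizes without TMM called 6, a marker minimum of 2 counts called 7 and position in the model 29. At the cell centre, against 15, no filter on low counts called 33 and the marker minimum of 2 called 23. Without section as a replicate block, 0 genes were called by edgeR in these 4 fits (10, 9, 6 and 4 at an unadjusted p under 0.05), and the centre differences of Igfbp2 and Igfbp4 were -0.34 and -0.26 without a call.

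For the 2 genes, the position difference of Igfbp4 was -0.081 without TMM and -0.0041 at a radius of 100 µm. Near erythroid cells Igfbp2 was called without TMM (-0.34), without the filter (-0.62), with the marker minimum of 2 (-0.38) and with position in the model (-0.83), and Igfbp4 without the filter (-0.48) and with position (-0.64). Near mesenchymal cells Igfbp2 was called without TMM (-0.54), with the marker minimum of 2 (-0.35) and with position (-1.16). Igfbp4 turned to 0.060 there without TMM, and was called with position at -0.59. At the centre neither was called without TMM (-0.15 and -0.060). The mean log2 ratio of the hepatocyte group to the other groups was 0.48 for Igfbp2 as counts per cell, with opposite signs in the sections (-0.14 and 1.10). For Igfbp4 it was -0.095 as counts per cell and 0.80 with Igfbp2 and Hp left out of the totals. Over all kept cells the mean log2 odds ratio of co-occurrence was 0.23 and the mean r over squares 0.53.

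In single sections Igfbp4 ranged from -0.86 to 0.0083 near mesenchymal cells and Igfbp2 from -1.81 to -0.26, and leaving out a section leaves no residual degrees of freedom, so these have no test. In all, 120 of the alternative values counted as unchanged and 23 as moved, while 10 gained and 4 lost a call and 1 turned. Numbers of genes called were judged by a fixed fold limit, and most of the 23 were such numbers. Fitted differences other than by position counted as unchanged if they kept their direction and their side of the threshold. Position differences, descriptions and single-section values did so if they moved by less than the spread between sections. With 2 sections, single-section values of a description always lie within that spread, so they say nothing on stability. Depth limits the near classes of section 2, whose sums held 3760 and 4401 counts.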
